A study of Mus musculus with 6 samples.

Results

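The 10 genes described here build the meiotic chromosome axis and the synaptonemal complex: Sycp1, Sycp2, Sycp3, Syce1, Syce2, Hormad1, Hormad2, Smc1b, Rec8 and Stag3. They were chosen by name, and every probe set that the platform annotation assigns to exactly 1 of these symbols was read on all 6 arrays. Each gene had 1 such probe set, so 10 of 45037 non-control probe sets, and 10 of 18193 singly named genes, make up the group. Affymetrix mouse 3' arrays had been hybridised with total RNA of GFP-positive elongating spermatids, the haploid cells in which the nucleus condenses. ICR mice, an outbred strain labelled wildtype, had their testes transduced at 5 weeks of age, and cells were sorted 1 week after transduction. All 3 lentiviral vectors carried GFP, and the groups were the pSilencer vector as control, a vector with an shRNA named Caf1 (shCaf1) and a vector with an shRNA named Miwi (shMiwi), with 2 arrays labelled as biological replicates in each. Every group was thus transduced with a GFP vector and sorted, and knockdown was by shRNA in wildtype animals, not by a mutation. Whether the arrays shared a day or batch of transduction or sort is not known. The sources used here do not say how many testes or animals an array stands for, so p-values measure the spread between these arrays only.

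During meiotic prophase the replicated sister chromatids are held together by cohesin rings that carry the meiosis-specific subunits Smc1b, Rec8 and Stag3. The axis built on these rings, with Sycp2 and Sycp3 as its lateral element, is joined to the axis of the homologous chromosome by Sycp1 transverse filaments, which meet in a central element that contains Syce1 and Syce2. Hormad1 and Hormad2 mark the axes that have not yet paired and are removed as the complex forms. These proteins act in spermatocytes, which come earlier in spermatogenesis than the sorted cells. The Smc1b and Stag3 genes are known to be kept silent in somatic cells by the repressor E2F6.

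The sequences just before the start sites are shown for the 4 genes on which the comparisons turn, Sycp3 for its high log2 difference from control, Hormad1 for its split replicates, and Syce2 and Rec8 for the difference between the shRNA groups. The sequences are from RefSeq (GRCm38.p6), 250 bases up to the start site, 5′ to 3′ on the gene's strand. Capitals mark matches on either strand to the E2F6 core TCCCGC, to the E-box CACGTG that the MGA and MAX pair binds, or to the A-MYB core AACTGNC.
Sycp3 (chr10:88459337-88459586, plus strand): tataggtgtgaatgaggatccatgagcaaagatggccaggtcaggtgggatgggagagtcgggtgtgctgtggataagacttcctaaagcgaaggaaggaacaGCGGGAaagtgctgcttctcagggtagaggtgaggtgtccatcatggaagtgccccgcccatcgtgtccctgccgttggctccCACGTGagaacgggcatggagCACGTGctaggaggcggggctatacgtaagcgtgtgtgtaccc
Hormad1 (chr3:95559427-95559676, plus strand): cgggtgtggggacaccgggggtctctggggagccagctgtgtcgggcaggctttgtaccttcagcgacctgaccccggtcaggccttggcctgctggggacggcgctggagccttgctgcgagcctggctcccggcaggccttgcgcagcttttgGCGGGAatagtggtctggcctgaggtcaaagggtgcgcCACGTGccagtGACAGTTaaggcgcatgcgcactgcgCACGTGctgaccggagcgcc
Syce2 (chr8:84871861-84872110, plus strand): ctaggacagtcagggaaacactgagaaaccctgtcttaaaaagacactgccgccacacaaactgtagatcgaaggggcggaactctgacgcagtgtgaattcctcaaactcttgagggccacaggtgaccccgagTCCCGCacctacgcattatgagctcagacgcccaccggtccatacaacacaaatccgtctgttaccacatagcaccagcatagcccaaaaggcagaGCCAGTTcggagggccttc
Rec8 (chr14:55617916-55618165, plus strand): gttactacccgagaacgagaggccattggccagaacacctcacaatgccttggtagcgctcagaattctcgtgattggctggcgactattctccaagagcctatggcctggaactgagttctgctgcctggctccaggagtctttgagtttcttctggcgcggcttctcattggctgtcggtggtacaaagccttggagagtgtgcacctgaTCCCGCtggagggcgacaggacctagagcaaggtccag

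All 10 genes had at least 1 promoter in that table, 12 in all. TCCCGC was found before 5 of the 10 genes (Sycp3, Syce2, Hormad1, Smc1b and Rec8). It was in 7 of their 12 windows and in 16.9% of all 32851 promoter windows of this length. CACGTG was found before 5 genes (Sycp3, Sycp1, Syce2, Hormad1 and Stag3), in 6 of 12 windows, against 6.02% of all windows. AACTGNC was found before 4 (Sycp2, Syce1, Syce2 and Hormad1), in 6 of 12 windows, against 10.6%. The 2 windows of Syce2 overlap, as do the 2 of Hormad1. The G and C content of the 12 windows was 53.2% to 68%, beside a median of 52.4% over all windows. In Syce2 the CACGTG match lies before the other annotated start site, whose window is not shown. Hormad1 held all 3 motifs within its last 95 bases, with TCCCGC beginning 95 bases before the start, CACGTG at 57 and 20, and AACTGNC at 46. These matches describe letters and were not tested as binding sites.

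The control arrays differed so much from the other 4 that each comparison with them has to be read beside array measures. The hybridization controls, RNAs spiked in at a fixed amount, read 82.3-fold and 16.2-fold the shRNA arrays' mean on controls 1 and 2, with a range of 0.806-fold to 1.2-fold over the shRNA arrays themselves. Pearson's r over the 27022 tested probe sets was 0.451 for the pair of controls, 0.983 for the shCaf1 pair and 0.982 for the shMiwi pair. With the shRNA arrays, r was 0.0373 to 0.0705 for control 1 and 0.396 to 0.462 for control 2. The Piwil1 (Miwi) probe set read 1445360 and 292542 in control, 21881 and 22442 in shCaf1 and 9780 and 10392 in shMiwi. It was lower in shMiwi than in shCaf1 by a log2 value of -1.14 (limma adjusted p = 0.00105). Scaled on the hybridization controls, it read 17566 and 18023 in control, 19926 and 18695 in shCaf1, and 10391 and 12893 in shMiwi. The brightest Cnot7 (Caf1) probe set read 2003570 and 188877 in control, 3633 and 4330 in shCaf1, and 4365 and 5012 in shMiwi. Between the shRNA groups it did not pass (log2 difference, shMiwi minus shCaf1, 0.24, limma adjusted p = 0.307). Scaled in the same way, it read 24350 and 11636 in control, 3308 and 3607 in shCaf1, and 4638 and 6218 in shMiwi. Of the other 2 Cnot7 probe sets, 1 passed as lower in shCaf1 (388 and 353 against 645 and 605, difference 0.73, limma adjusted p = 0.032) and 1 did not (0.38, adjusted p = 0.264). In control the one that passed read 1377500 and 10262, and the other 1491010 and 9118. Scaled on the hybridization controls, the one that passed read 16741 and 632 in control, 353 and 294 in shCaf1, and 685 and 751 in shMiwi. The other read 18121 and 562, 216 and 192, and 294 and 431 in the same order. Because of the controls, each probe set was also given as its percentile among the non-control probe sets of the same array, which no scaling of a whole array can change.

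By that measure the genes stood near the top of the shRNA arrays and were spread widely on the controls. Of the 10 probe sets, 8 lay at or above the 90th percentile on each shRNA array, 3 on control 2 and 0 on control 1. Their median percentile ranged from 97.8 to 98.2 over the shRNA arrays and was 61.2 on control 2 and 38.8 on control 1. Hormad2 and Rec8 were the 2 below the 90th percentile on the shRNA arrays.

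**Figure D1:**
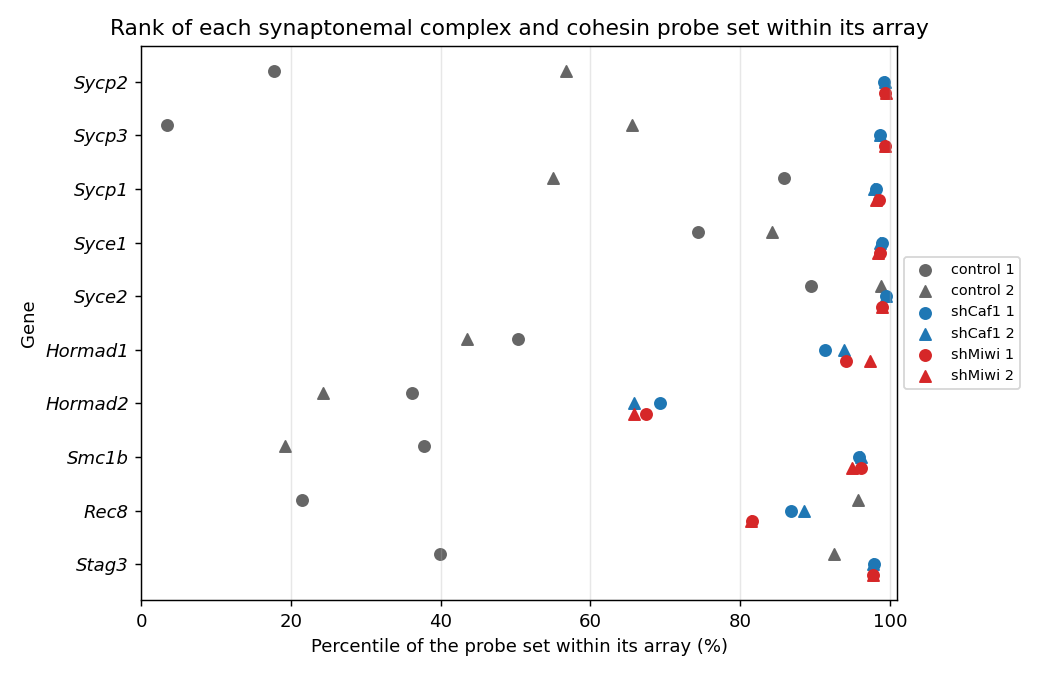
Percentile of each of the 10 probe sets among the 45037 non-control probe sets of its own array (horizontal axis, %), by gene (vertical axis), with 1 point per array; circles are replicate 1 and triangles replicate 2. The shRNA arrays cluster at the right for 8 genes, while control 1 and control 2 lie apart from them and from each other, with Syce2, Rec8 and Stag3 high on control 2.

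Against control, 7 of the 10 genes rose in shMiwi and 0 fell, in a model in which 43.2% of all tested probe sets were called, 16.9% higher and 26.4% lower (limma, adjusted p under 0.05, all 6 arrays). In shCaf1, 7 rose and 0 fell, where 41.5% of all probe sets were called, 15.5% higher and 26% lower. Both comparisons use the same control arrays and so are not independent. The median log2 difference of the 10 was 3.63 in shMiwi and 3.69 in shCaf1, beside -0.2 and -0.25 for all tested probe sets. By percentile, 9 of the 10 were higher on both shMiwi arrays than on both controls, against 37.9% of all tested probe sets, and 9 on both shCaf1 arrays, against 38%. Differences are on the log2(signal + 16) scale, which understates those of dim probe sets.

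The lateral element genes had the highest differences of the 10 over both controls, and Smc1b had the highest without control 1 (6.05 in shMiwi, beside 5.36 for Sycp2 and 4.89 for Sycp3, and 6.22 in shCaf1, beside 5.46 and 4.74). Sycp2, which builds the core of the lateral element, read 62.8 on control 1 and 272 on control 2, then 11875 and 13576 in shCaf1 and 10870 and 12747 in shMiwi. The groups did not overlap, and Sycp2 rose by 6.29 in shMiwi (SE 0.68, n = 2 per group, limma adjusted p = 0.0049) and by 6.4 in shCaf1 (SE 0.68, adjusted p = 0.0057). Sycp3, the partner of Sycp2 in the lateral element, read 24.6 and 362 on the controls, 9641 and 10500 in shCaf1, and 10835 and 11593 in shMiwi. Control 1 placed it at percentile 3.42 and control 2 at 65.6, and every shRNA array at 98.7 or above. Sycp3 rose by 6.5 in shMiwi (SE 1.05, adjusted p = 0.00851) and by 6.35 in shCaf1 (SE 1.05, adjusted p = 0.00982).

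In the transverse filament and central element, 2 of 3 genes rose. Sycp1, the filament protein that spans the complex, read 1044 and 257 on the controls, 7813 and 7428 in shCaf1, and 7897 and 7541 in shMiwi. Here control 1 was the higher of the controls, and the rise was 3.85 in shMiwi (SE 0.7, limma adjusted p = 0.0112) and 3.83 in shCaf1 (adjusted p = 0.0122). Syce1, a central element protein, read 714 and 791 on the controls, 11088 and 10295 in shCaf1, and 8369 and 8094 in shMiwi. Its controls differed by 0.14 on the log2 scale, the closest pair among the 10 genes, and it rose by 3.42 in shMiwi (SE 0.36, adjusted p = 0.0048) and by 3.8 in shCaf1 (SE 0.36, adjusted p = 0.00518). Syce2, which extends the central element along the chromosome, read 1234 on control 1 but 15169 on control 2, with 15073 and 15406 in shCaf1 and 9673 and 9744 in shMiwi. The deposited signals of the groups overlapped, and the differences of 1.16 in shMiwi and 1.81 in shCaf1 (SE 1.18 in both) did not pass (adjusted p = 0.461 and 0.267). Without control 1 the difference of Syce2 turned to -0.64 in shMiwi and was 0.01 in shCaf1. Without control 2 it was 2.96 and 3.61. With 1 control array left, the fit takes no spread from the controls, so only differences are given for such fits here.

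Of the HORMA domain pair, Hormad1 passed. Hormad1, which promotes pairing and break formation on the unsynapsed axis, read 309 and 167 on the controls, 2033 and 3031 in shCaf1, and 3088 and 6006 in shMiwi. It rose by 4.15 in shMiwi (SE 0.54, limma adjusted p = 0.00598) and by 3.36 in shCaf1 (SE 0.54, adjusted p = 0.00921), and both calls were lost when each group had its own weight (adjusted p = 0.0706 and 0.123). Hormad2, which shares its place on unsynapsed axes, read 154 and 58.1 on the controls, 286 and 210 in shCaf1, and 267 and 216 in shMiwi. The groups did not overlap but lay close together, and the differences of 1.19 and 1.22 (SE 0.52 in both) did not pass (adjusted p = 0.12 in shMiwi and 0.117 in shCaf1). Quantile normalization (adjusted p = 0.0129 and 0.0128) and centring on the median (adjusted p = 0.00511 and 0.00564) both made it pass as higher. Without control 1 the differences were 1.79 in shMiwi and 1.82 in shCaf1, and without control 2 they were 0.59 and 0.62.

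Of the 3 meiotic cohesin subunits, Stag3 and Rec8 were higher on control 2 than on control 1, and Smc1b was higher on control 1. Smc1b, the meiotic SMC protein, read 165 and 43.8 on the controls, 4329 and 4575 in shCaf1, and 4361 and 3558 in shMiwi. All shRNA arrays were well above both controls, and Smc1b rose by 5.25 in shMiwi (SE 0.6, limma adjusted p = 0.00512) and by 5.42 in shCaf1 (SE 0.6, adjusted p = 0.00583). Stag3, the meiotic STAG subunit, read 182 and 1822 on the controls, 7069 and 7337 in shCaf1, and 6341 and 6442 in shMiwi. It rose by 3.41 in shMiwi (SE 1.05, adjusted p = 0.0496) and by 3.58 in shCaf1 (SE 1.05, adjusted p = 0.0446), close to the threshold. Without control 1 the differences were 1.8 and 1.97, and without control 2 they were 5.02 and 5.19. Both calls ended with quantile normalization (adjusted p = 0.117 in both) and in the fit on the 4 arrays compared (adjusted p = 0.101 and 0.0973), and the call in each group also ended without either array of the other shRNA group (adjusted p = 0.103 in shMiwi, 0.0993 and 0.0992 in shCaf1). With 1 in place of 16 added to the signal, the call of Stag3 in shMiwi ended too (adjusted p = 0.0534). Rec8, the kleisin that closes the meiotic ring, read 74.7 on control 1 and 3380 on control 2, 1230 and 1442 in shCaf1, and 816 and 769 in shMiwi. Every shRNA array lay between the controls, and the differences of 0.54 in shMiwi and 1.28 in shCaf1 (SE 1.65 in both) did not pass (adjusted p = 0.81 and 0.56). Without control 1 the differences of Rec8 were -2.07 in shMiwi and -1.33 in shCaf1, and without control 2 they were 3.15 and 3.89.

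**Figure D2:**
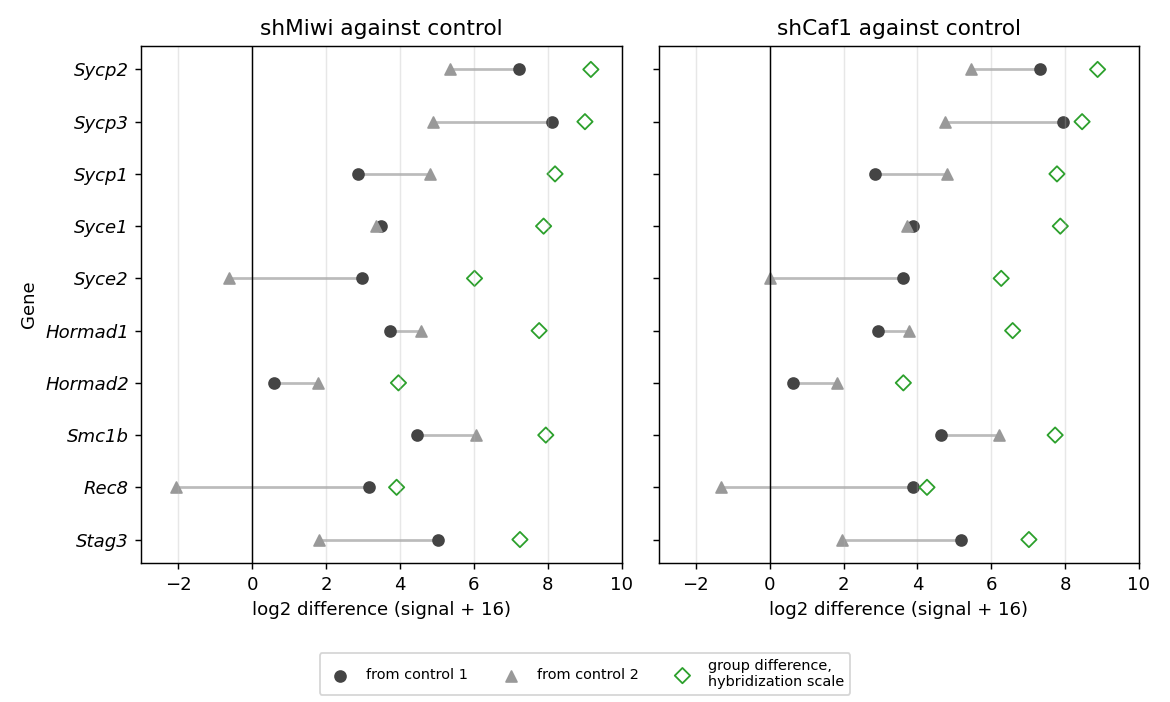
Difference in log2(signal + 16) between the mean of the shRNA group and each control array (filled circle, control 1; triangle, control 2), and the group difference after scaling on the hybridization controls (open diamond), by gene, for shMiwi (left) and shCaf1 (right). The grey line joins the values from the 2 controls; it is short for Syce1 and Hormad1, and it crosses 0 for Rec8 in both panels and for Syce2 in shMiwi.

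On the scale of the hybridization controls all 10 genes read higher on both shMiwi arrays than on both controls, and 95.4% of all tested probe sets did so too; in shCaf1 it was 10 of 10, against 93.5%. There the median over everything tested shifted from -0.2 to 3.58 in shMiwi and from -0.25 to 3.15 in shCaf1, and the median of the 10 genes to 7.83 and 7.38. The constant of 16 was added after this scaling. On control 1 all 10 genes then read below it, from 0.299 for Sycp3 to 14.99 for Syce2. On control 2 Sycp1, Hormad1, Hormad2 and Smc1b did too. Differences and adjusted p on this scale therefore depend on that constant, and no other constant was tried there. The calls for all probe sets split into 4559 higher and 7128 lower in shMiwi as deposited, 5537 and 3973 after quantile normalization, 9836 and 2834 after median centring, and 24432 and 26 on the hybridization scale. In shCaf1 the splits were 4186 and 7019, 5293 and 3753, 9314 and 2580, and 23669 and 10. The 7 genes that passed against control in shMiwi were all lost when either shMiwi array was left out, and likewise in shCaf1 without either shCaf1 array (0 of 10 by limma in each case, 6 at an unadjusted p under 0.05). All other calls of these comparisons were lost with them, with 9650 and 9024 probe sets at an unadjusted p under 0.05 in shMiwi and 9018 and 8750 in shCaf1. Vector and array quality cannot be told apart, since both control arrays carry the high hybridization signal and both pSilencer samples.

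Control 2 divided the family. Syce2, Rec8 and Stag3 lay at percentiles 98.8, 95.7 and 92.6 on that array and Syce1 at 84.2, while Sycp1, Sycp2, Sycp3, Hormad1, Hormad2 and Smc1b lay between 19.2 and 65.6. On control 1 the order was another, with Syce2 at 89.5, Sycp1 at 85.8 and Syce1 at 74.4, and Rec8 and Stag3 at 21.5 and 39.9. Of the stage markers, 18 elongating spermatid genes had their median at percentile 35.2 of control 1, 98.5 of control 2 and 97.9 to 99.3 of the shRNA arrays. Members of that list differed on control 1, where the protamine gene Prm1 was at percentile 96.1 and Gapdhs, the sperm glycolytic enzyme, at 86.9. The 15 round spermatid markers stood at 22.5, 81.2 and 95.6 to 97.5, and 15 pachytene spermatocyte markers outside the 10 genes at 32.6, 90.2 and 96.7 to 97.4. Against control, 10 of the 15 round spermatid markers rose and 0 fell in each shRNA group. Their median log2 difference was 4.36 in shMiwi and 4.69 in shCaf1, beside 3.63 and 3.69 for the 10 genes. Of the 15 pachytene markers, 7 rose and 0 fell in each (medians 3.21 and 3.27). Of the 18 elongating spermatid markers, 2 rose and 1 fell in shMiwi, and 3 rose and 1 fell in shCaf1 (medians 2.28 and 2.85). In bulk RNA of this kind, more cells of a type and more RNA per cell cannot be told apart.

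Markers of other testis cells were also read beside these values. The 12 measured Sertoli cell markers summed to 7448 and 56558 on the controls, against 57327 to 62368 in the shRNA groups, and Clu, a secreted Sertoli product that other cells also make, was at percentile 99.9 on every shRNA array. Of the 12 Sertoli markers, 2 rose and 3 fell in shMiwi against control, and 1 rose and 3 fell in shCaf1; those that fell in shMiwi, named after their values were seen, were Amh, Gata4 and Fshr (-5.05, -2.05 and -2.49), and Clu did not pass (2.24, limma adjusted p = 0.249). The 6 Leydig cell markers summed to 5270 and 6527 on the controls, against 21094 to 25387, with Cyp17a1, a steroidogenic enzyme, at 340 and 2120 against 10816 to 12922. Of these 6, 3 rose and 0 fell in shMiwi, and 2 rose and 0 fell in shCaf1, while Star and Nr5a1, also named after their values were seen, stood at -1 and -0.71 in shMiwi and did not pass (limma adjusted p = 0.202 and 0.232). The 13 spermatogonial markers summed to 6551 and 4324 on the controls, against 12125 to 14502, of which Id4 alone read 15.2 and 665 against 6625 to 8326. Of the 12 spermatogonial markers tested, 3 rose and 2 fell in shMiwi, and 2 rose and 2 fell in shCaf1. On the hybridization scale, 11 of the 12 Sertoli, 6 of the 6 Leydig and 12 of the 12 spermatogonial markers were called higher in each shRNA group and 0 lower. Of all 27022 tested probe sets, 24432 were called higher there in shMiwi and 23669 in shCaf1, so such counts are not particular to these markers. The 10 peritubular and endothelial markers summed to 9232 and 8617 on the controls against 4317 to 5422, and the 9 macrophage and blood markers to 2981 and 3961 against 5796 to 6518. No marker was listed at 0 on any array, and the part of these cells in the results was not tested.

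Other genes of the pathway, from lists made by function, are given for comparison. Of 12 further genes of the synaptonemal complex and its anchoring to the nuclear envelope, 7 rose and 0 fell in shMiwi against control (median log2 difference 2.23), and 6 rose and 0 fell in shCaf1 (median 2.13). In that list Tex12, a central element protein, rose by 1.66 in shMiwi (SE 0.5, limma adjusted p = 0.0467), and Sun2, a nuclear envelope anchor, stood at 0.31 (adjusted p = 0.759). Of the 17 tested recombination genes 8 rose and 1 fell in shMiwi (median 2.24), and 5 rose and 1 fell in shCaf1 (median 2.08), with Psmc3ip, a strand invasion cofactor, at 2.81 (adjusted p = 0.13) and Brca2 at 2.24 (adjusted p = 0.0633) in shMiwi. Of 23 genes of meiotic entry and exit 14 rose and 0 fell in shMiwi (median 2.76), and 13 rose and 1 fell in shCaf1 (median 2.76), with the spermatocyte chaperone Hspa2 higher by 2.73 (adjusted p = 0.0294) in shMiwi. Of 18 cohesin genes shared with mitosis, or that load, release and protect the ring, 4 rose and 3 fell in each shRNA group (medians 0.27 and 0.4), and neither Pttg1, the separase inhibitor securin, at 0.52, nor Wapl, the cohesin release factor, at -0.79, passed in shMiwi (adjusted p = 0.483 and 0.151). On the hybridization scale no gene of these 4 lists was called lower in either shRNA group, as few probe sets were.

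Between the shRNA groups, whose replicate arrays lay much closer together, 2 of the 10 genes fell in shMiwi relative to shCaf1, 0 rose and 8 did not pass. The background was 7.33% of tested probe sets called, 3.81% higher and 3.52% lower (limma on the 4 shRNA arrays). By signal alone, 4 of the 10 (Syce1, Syce2, Rec8 and Stag3) were lower on both shMiwi arrays than on both shCaf1 arrays, against 25.3% of all tested probe sets, and 2 (Sycp3 and Hormad1) were higher on both, against 28.8%. Syce2 was lower in shMiwi by a log2 value of -0.65 (SE 0.09, n = 2 per group, adjusted p = 0.00899), a 1.57-fold difference, with 9673 and 9744 against 15073 and 15406. Rec8 was lower by -0.74 (SE 0.14, adjusted p = 0.0236), a 1.67-fold difference, with 816 and 769 against 1230 and 1442. In both genes the replicates lay closer together, within 0.03 for Syce2 and 0.23 for Rec8, than the groups, which were 0.63 and 0.58 apart at their nearest arrays. The order held on the hybridization scale too, where the differences were -0.25 and -0.35 and no longer passed (limma adjusted p = 0.282 and 0.246). On that scale the median over everything tested shifted from 0.02 to 0.38, and relative to the median Syce2 stood at -0.67 as deposited and -0.63 on the hybridization scale, and Rec8 at -0.75 and -0.73. Without an intensity trend in the variance model both calls were lost (limma adjusted p = 0.149 in each, with 15 calls among all probe sets), as they were with all 6 arrays in the fit (limma, 0 calls in all, 264 at an unadjusted p under 0.05). Rec8 was also lost with no filter on dim probe sets (adjusted p = 0.0513) and without shCaf1 replicate 1 (adjusted p = 0.0517) or replicate 2 (adjusted p = 0.197).

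Of the other 8 genes, Syce1 and Hormad1 came nearest. Syce1 was -0.38 in shMiwi against shCaf1 (95% interval -0.6 to -0.15, SE 0.1, limma adjusted p = 0.0563), with both shMiwi arrays below both shCaf1 arrays, and stood at 0.02 on the hybridization scale. Hormad1 was 0.79 (interval 0.14 to 1.44, SE 0.29, adjusted p = 0.128). Its shMiwi replicates were 0.96 apart, and replicate 2 was the higher. Without shMiwi replicate 1 the difference was 1.27, and without replicate 2 it was 0.31. Without shCaf1 replicate 1 it was 0.5, and without replicate 2 it was 1.08. On the hybridization scale Hormad1 passed, at 1.19 (limma adjusted p = 0.000129), as did Sycp3 at 0.55 (adjusted p = 0.016). On that scale 2 of the 10 genes were called higher and 0 lower, among 6887 higher and 258 lower calls in all. As deposited, Sycp3 differed by 0.16 (interval -0.08 to 0.39), and it passed as higher with quantile normalization (0.64, limma adjusted p = 0.0276), where 1 of the 10 genes was called higher and 2 lower. Sycp1 differed by 0.02 (-0.21 to 0.25), Sycp2 by -0.11 (-0.38 to 0.16) and Hormad2 by -0.03 (-0.52 to 0.47). Smc1b differed by -0.18 (interval -0.47 to 0.12) and Stag3 by -0.17 (-0.4 to 0.06). The intervals are for single probe sets and were not adjusted for the number tested, and they leave room for differences of either sign in these last 6 genes.

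**Figure D3:**
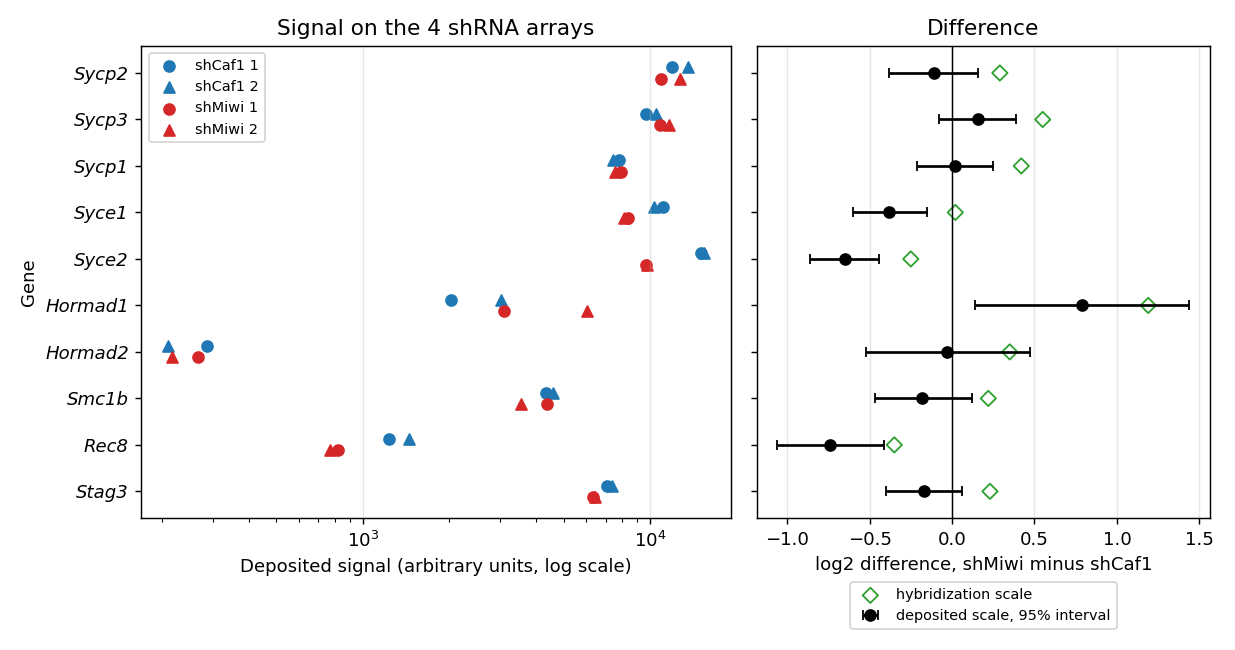
Left, deposited signal (log axis) of each gene on the 2 shCaf1 arrays (blue) and the 2 shMiwi arrays (red), with circles for replicate 1 and triangles for replicate 2. Right, the log2 difference, shMiwi minus shCaf1, with its 95% interval from limma (black) and after scaling on the hybridization controls (open diamond); Syce2 and Rec8 lie to the left of 0 on both scales.

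The same comparison was read for the stage lists. Of the 18 elongating spermatid markers, 10 fell in shMiwi against shCaf1 and 0 rose (median -0.49), among them Gapdhs at -0.87 (SE 0.12, limma adjusted p = 0.00721), while Prm1 at -0.39 did not pass (adjusted p = 0.0623). On the hybridization scale 3 of the 18 were called lower and 2 higher (median -0.13, beside 0.38 for everything tested). Of 15 round spermatid markers 3 fell and 0 rose (median -0.34), which became 0 lower and 1 higher on the hybridization scale (limma; median 0.06), and of 15 pachytene markers 1 fell and 1 rose (median 0). Of the further synaptonemal complex genes 3 rose and 0 fell (median 0.22), Tex12 by 0.7 (SE 0.16, limma adjusted p = 0.0341), and for the 10 genes themselves the median was -0.14, beside 0.02 for all tested probe sets. As deposited, 10 of the 18 elongating spermatid markers were called lower in shMiwi, as were Syce2 and Rec8. Any relation between them was not tested.

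The 5 genes outside the family whose percentiles over the 6 arrays came closest to the family's median profile were Nectin3, Dhx9, Gm4787, Papolb and Psma3. Their mean absolute difference from that profile was 1.51 percentile points for Nectin3, 1.71 for Dhx9, 1.95 for Gm4787, 1.96 for Papolb and 2.03 for Psma3, among 23650 probe sets compared. Nectin3, a cell adhesion protein of spermatids, stood at 45.3 and 60 on the controls and at 98.2 to 98.6 in the shRNA groups.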

How the data were processed

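Total RNA was extracted with Trizol and labelled with a 3' IVT kit, per the labels' protocols. The authors' deposited values are signal intensities per probe set on a linear scale; the submitters' processing notes name MAS5, without a version, and a genome build is not given in the sources used here. On every array the deposited intensities average 500 after 2% is trimmed from each end, so a weakly hybridised array is multiplied up. Of 45101 probe sets, 64 controls were left out, and those with a mean log2(signal + 16) over all arrays above the 40th percentile were tested (27022, of which 23660 name 1 gene). All 10 genes passed this filter, also by the mean of the control arrays alone.

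Groups came from the sample titles. limma 3.58.1 in R 4.3.3 (lmFit, eBayes with an intensity trend, Benjamini-Hochberg over all tested probe sets) was fitted to all 6 arrays for comparisons with control (3 residual degrees of freedom) and to the 4 shRNA arrays for shMiwi against shCaf1 (2 residual degrees of freedom). The threshold for a call was an adjusted p of 0.05. The shared spread is smaller than that of the controls, which bears on the adjusted p in both comparisons with control; with a weight per group it went up for some of the 10 genes and down for others. Scaling on hybridization controls used 18 probe sets. Named were the 10 genes, the 2 of each list with the highest mean percentile, of which some are given only within their list's counts, and the 5 nearest in percentile; a gene of a list is represented by its brightest probe set. Gene identifiers matched RefSeq (GRCm38.p6) for 99.4% of singly named probe sets. The genes, lists, tests and alternatives were chosen with earlier results of these data known. The fits were checked on simulated data. Alternatives were other added constants, filters, scalings, variance models, a replicate block and leaving out each array.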

Additional observations from a re-analysis of the deposited data

How the results depend on the processing

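Among the 10 genes, the count of 7 called against control stayed within 1.5 times under the other constants, no filter, 3 other scalings, 2 variance models, the replicate block and the fit on the 4 arrays compared, in shMiwi and in shCaf1. With the replicate block it was 6 in each, and Stag3 did not pass (limma adjusted p = 0.0546 in shMiwi and 0.0505 in shCaf1). With hybridization scaling it was 10 in each, where most probe sets passed as higher. Syce2, Rec8 and Hormad2 passed as higher there (limma adjusted p = 0.00685, 0.00718 and 1.07e-05 in shMiwi, and 0.00592, 0.005 and 2.4e-05 in shCaf1). Leaving out single arrays gave between 0 and 10 called genes in shMiwi and between 0 and 9 in shCaf1; a lone array is then assumed to vary like the other groups. Calls among all probe sets, 11687 in shMiwi and 11205 in shCaf1, became 18076 and 17244 with no filter, 24458 and 23679 with hybridization control scaling, 3189 and 2671 with a weight per group, 6632 and 5941 in the fit on the 4 arrays compared, and 22411 and 21342 with hybridization scaling and a weight per group, an alternative chosen after seeing the data; they ranged from 0 to 22700 and from 0 to 22675 without single arrays. Without single arrays Syce2 ranged from -0.64 to 2.96 and Rec8 from -2.07 to 3.15 in shMiwi, and Rec8 from -1.33 to 3.89 in shCaf1, with the lowest values without control replicate 1 and the highest without control replicate 2.

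For shMiwi against shCaf1, the 2 called genes became 1 with no filter, 0 by limma without a trend (2 at an unadjusted p under 0.05) and 0 by limma with all 6 arrays (0 at an unadjusted p under 0.05), and between 1 and 3 without single arrays. The 1981 calls among all probe sets became 568 with no filter, 1302 with median centring, 7145 with hybridization scaling, 15 without a trend and 0 with all 6 arrays, and ranged from 276 to 3878 without single arrays. With the replicate number as a block, 4 genes were called, among them Syce1 and Hormad1 in addition to Syce2 and Rec8, and 5458 probe sets in all. The labels do not say that equal numbers share an animal or a day. Deviations of same-numbered arrays correlated at 0.181 between shCaf1 and shMiwi, 0.061 between control and shCaf1 and 0.004 between control and shMiwi. Whether same-numbered arrays share more than a number is not known. The sign turned, without any of these values passing, for Sycp2 (0.25 with quantile normalization, 0.29 with hybridization scaling, and -0.22 to 0.01 without single arrays), Hormad2 (0.35 with hybridization scaling, and -0.23 to 0.18 without single arrays), Sycp1 (-0.02 to 0.05 without single arrays), and, with hybridization scaling, Syce1 (0.02), Smc1b (0.22) and Stag3 (0.23). Apart from the shift of all probe sets that a scaling makes and the arrays left out, the cause was not tested. Detection calls were not used here, so how far background limits the dim values, such as Sycp3 on control 1 and Smc1b and Hormad2 on control 2, is not known.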

Other observations

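The meiotic cohesin subunits can be set beside their counterparts in mitotic cohesin, which were read after the comparisons above and lie outside the rule for named genes. Smc1a, the counterpart of Smc1b, read 1080 and 357 on the controls, against 310 to 421 in the shRNA groups, and did not pass against control (-0.71 in shMiwi, SE 0.58, limma adjusted p = 0.367), but passed as higher on the hybridization scale (3.75 in shMiwi and 3.14 in shCaf1, adjusted p = 1.42e-05 and 4.41e-05), where most probe sets did. Stag2, a counterpart of Stag3, read 49452 and 13450 on the controls, against 706 to 895, and was lower on the deposited scale by -4.92 in shMiwi (SE 0.68, adjusted p = 0.00646) and by -5.14 in shCaf1 (adjusted p = 0.0069), but not on the hybridization scale, where it stood at 0.44 and -0.18 (adjusted p = 0.482 and 0.778). Stag1, the other, read 5196 and 2348 on the controls, against 2690 to 3737, at 0.01 in shMiwi (SE 0.5, adjusted p = 0.988) and, on the hybridization scale, higher by 5.17 in shMiwi and 4.46 in shCaf1 (adjusted p = 0.000158 and 0.000422); with median centring it passed as higher in shMiwi (1.59, adjusted p = 0.0333). Rad21, the kleisin in the place of Rec8, read 199 and 183 on the controls, and 1490, 1816, 1396 and 2484 on the shRNA arrays, and rose by 3.18 in shMiwi (SE 0.42, adjusted p = 0.00608) and by 3.01 in shCaf1 (adjusted p = 0.0074), with 6.59 and 6.01 on the hybridization scale. Smc3, shared by both kinds of ring, did not pass in shMiwi (2.46, SE 0.83, adjusted p = 0.0635) or shCaf1 (2.44, adjusted p = 0.0669) as deposited, and passed as higher in shMiwi and shCaf1 with median centring (4.04 and 4.01, adjusted p = 0.0103 and 0.0114) and on the hybridization scale (6.59 and 6.18, adjusted p = 9.36e-06 and 2.11e-05). Between shMiwi and shCaf1 none of these 5 genes passed in limma on the 4 shRNA arrays as deposited, with differences from 0.02 for Smc3 to 0.31 for Stag1 (adjusted p between 0.153 and 0.939); on the hybridization scale Smc1a, Stag1 and Stag2 passed as higher (0.61, 0.71 and 0.61), where the median of all was 0.38. Each has several probe sets, 2 for Stag2 and Smc3, 3 for Smc1a and Rad21 and 6 for Stag1, and the values are of the brightest by mean over all arrays.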
